A study of Mus musculus with 4 samples.

Results

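Polycomb repressive complex 1 (PRC1) is a chromatin complex that ubiquitinates histone H2A through its RING subunits. In its canonical form a Cbx protein binds H3K27me3, the mark laid down by PRC2, and a Phc protein lets complexes join to each other. In its variant forms Rybp or Yaf2 takes the place of the Cbx protein, and the Pcgf subunit sets which form is built. In embryonic stem cells (ESCs) both forms are known to sit at silent developmental genes. REST is a repressor of neuronal genes that binds the RE1 sequence, and the study asked whether its repression and that of Polycomb are linked.

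Described here are 9 PRC1 genes, chosen by symbol among the 26301 identifiers of the count table. They were the Cbx readers Cbx2, Cbx6, Cbx7 and Cbx8, the RING genes Ring1 and Rnf2, the Polyhomeotic gene Phc1, the Pcgf gene Bmi1, and Rybp. RNA-seq counts came from 2 libraries of WT ESCs (line N6) and 2 of REST-/- ESCs (line N8), labelled as biological replicates. Both lines were grown in serum with LIF on irradiated mouse embryonic fibroblasts and then passaged on gelatin to remove these feeders. Each genotype was 1 line, so a difference between lines and a difference between genotypes cannot be told apart. In bulk RNA, fewer cells of a type and less RNA per cell cannot be told apart either.

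The WT libraries held 30953863 and 27061056 counts and the REST-/- libraries 25461270 and 22293966. Rest itself was counted 7908 and 6233 times in the WT libraries, against 4244 and 3890 times in REST-/- replicates 1 and 2. Its log2 fold change was -0.52 (SE 0.13, adjusted p = 0.526 in edgeR's quasi-likelihood test). These values cover the gene as a whole, so the exons that remain cannot be told from them. All 10 markers of pluripotent cells were at 1 CPM (a count scaled to the TMM-adjusted library size) or more in every library, with summed levels of 3993 to 4174 CPM in WT and 3305 to 3550 in REST-/- ESCs. Zfp42, Klf2, Nanog and Klf4 were lower without overlap in REST-/- ESCs and had an unadjusted p under 0.05, with log2 fold changes of -1.36, -0.84, -0.46 and -0.44. None of the 10 was called in the quasi-likelihood test. DESeq2 and the tag-wise exact test each called 2 of them, Zfp42 and Klf2, and with common dispersion the exact test called Zfp42. Over all genes tested, DESeq2 called 1.54%, and the exact test called 1.79% with tag-wise and 2.23% with common dispersion. The 10 fibroblast markers summed to 125.8 CPM in REST-/- replicate 1 and to 23.0 to 38.4 CPM in the other libraries, with Lum at 0 in all of them. With common dispersion the exact test called 6 of these fibroblast markers. The 10 markers of primitive endoderm summed to 280.5 and 486.9 CPM in WT and 584.2 and 722.3 in REST-/- ESCs. All 10 had a log2 fold change above 0, with a median of 0.79. In 8 of them the REST-/- libraries were higher without overlap, against 16.5% of the genes tested. The quasi-likelihood test called none of the 10, DESeq2 called 1 and each exact test called 2. The 8 neural markers summed to 239 to 373 CPM over all libraries. Across all genes, 15444 were tested and 9 were called at an adjusted p under 0.05, 0.0583% of those tested, while 1036 had an unadjusted p under 0.05.

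The regulatory sequence of interest for a REST knockout is the RE1 element. Its core was searched as AGCACC, any 2 bases, then GGACAG, on both strands of NCBIM37 (mm9), within 20 kb of each annotated start site. None of the 9 genes had a match to all 12 letters, against 2.82% of the 21860 genes searched. With 1 mismatch allowed, 6 of the 9 had a match, against 35.1% of all genes searched and 38.9% of those tested. The matches are shown because they are the nearest approach to an RE1 core at these genes, with the matching letters of the core in capitals and 5 bases on each side.
Phc1, chr6:122289410-122289433: cagacAGCACCgaGcACAGcgagc
Cbx2, chr11:118869147-118869170: cggccAGCcCCctGGACAGtgacc
Cbx2 and Cbx8, chr11:118889466-118889489: tctttAGCACCttGGcCAGgctga
Cbx7, chr15:79752887-79752910: cacacAGCACCcgtGACAGctgac
Ring1, chr17:34173805-34173828: ctgtcAGCACCctGGAgAGggacc
Rybp, chr6:100229585-100229608: aacgaAtCACCaaGGACAGaatat
The Phc1 match lay 202 bp downstream of a start site, on the plus strand, opposite to the gene. Relative to a start site, in the direction of the gene, those of Cbx7 and Rybp began at 10065 and 7832 bp, that of Ring1 at -12198 bp and the first of Cbx2 at -15124 bp. The site listed for both Cbx2 and Cbx8 began at 4432 bp from one and 10626 bp from the other. A match of letters says nothing of binding.

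RefSeq promoters were read for 7 of the 9 genes (GRCm38.p6, all but Cbx2 and Rybp). In the 250 bases before the start, the CpG count was 30 in Ring1, 23 in Cbx7, 22 in Cbx8, 21 in Bmi1, 20 in Rnf2 and Cbx6, and 8 in Phc1, against a median of 6 over 27025 promoters. The promoters of 3 genes are printed in the direction of the gene with each CpG in capitals: those of the RING pair, whose levels stood far apart, and that of Bmi1, whose level varied most between libraries.
Ring1, chr17:34024681-34024930, minus strand: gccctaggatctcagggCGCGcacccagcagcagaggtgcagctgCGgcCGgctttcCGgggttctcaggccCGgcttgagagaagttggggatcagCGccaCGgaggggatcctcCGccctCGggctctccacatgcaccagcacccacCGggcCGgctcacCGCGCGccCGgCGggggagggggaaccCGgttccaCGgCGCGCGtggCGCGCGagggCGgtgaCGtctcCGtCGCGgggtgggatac
Rnf2, chr1:151500992-151501241, minus strand: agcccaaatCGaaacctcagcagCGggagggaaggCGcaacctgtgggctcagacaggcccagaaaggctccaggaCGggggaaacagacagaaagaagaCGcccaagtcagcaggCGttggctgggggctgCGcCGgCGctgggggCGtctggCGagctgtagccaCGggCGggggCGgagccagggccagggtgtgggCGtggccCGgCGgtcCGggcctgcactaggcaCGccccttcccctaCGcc
Bmi1, chr2:18676768-18677017, plus strand: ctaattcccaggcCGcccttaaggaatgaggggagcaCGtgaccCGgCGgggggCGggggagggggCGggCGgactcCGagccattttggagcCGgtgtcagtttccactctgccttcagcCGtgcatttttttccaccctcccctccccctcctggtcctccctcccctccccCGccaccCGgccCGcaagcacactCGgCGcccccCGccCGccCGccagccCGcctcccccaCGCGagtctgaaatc

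The 9 genes spanned a 407.3-fold range of length-scaled level in WT ESCs. Levels of different genes were compared as RPKM, here CPM divided by the kilobases of annotated exon. Phc1 stood at the top with 123.9 ± 17.2 RPKM (SD, n = 2), above 97.1% of the genes tested, followed by Cbx7 with 69.9 ± 0.836 and Rnf2 with 36.3 ± 13.0. A middle group held Rybp (18.8 ± 3.02), Cbx6 (15.8 ± 0.0352) and Cbx2 (14.0 ± 1.25). Bmi1 (2.27 ± 1.53) and Ring1 (1.70 ± 0.0682) were lower than all of these, and Cbx8 was last with 0.304 ± 0.0422 RPKM, above 8.95% of the genes tested. Neighbours in this order did not share any range of values, except Bmi1 and Ring1, whose libraries overlapped. In REST-/- ESCs the order was the same apart from Ring1 (1.84 ± 0.409) and Bmi1 (1.31 ± 0.689), which exchanged places and again overlapped.

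**Figure D1:**
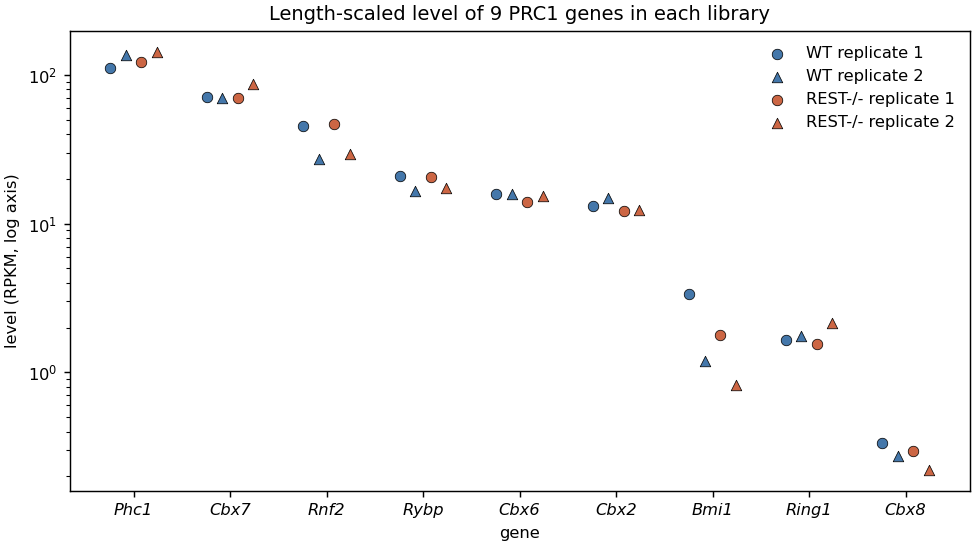
RPKM on a log axis for each of the 9 PRC1 genes, ordered by mean WT level, with 1 point per library (blue WT, orange REST-/-, circles replicate 1, triangles replicate 2). Phc1 sits above 100 and Cbx8 below 1 RPKM in every library, and the points of Bmi1 are the most widely scattered.

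Between the genotypes, none of the 9 genes was called by edgeR's quasi-likelihood test, and none had an unadjusted p under 0.05, as 6.71% of the genes tested did. DESeq2 also called none of the 9, against 1.54% of the genes tested, and neither did the exact test of edgeR, which called 1.79% with tag-wise and 2.23% with common dispersion. Of the log2 fold changes of REST-/- over WT, 5 were above 0 and 4 below, with a median of 0.0036 against -0.0047 over all genes tested. Of the 9, 8 lay within 0.25 of 0, as did 9445 of the 15444 genes tested. In 2 of the 9, Cbx2 and Cbx6, the REST-/- libraries lay below the WT libraries without overlap, which 15.4% of tested genes did. None of the 9 lay above without overlap, which 16.5% of tested genes did.

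The Cbx proteins read H3K27me3 through a chromodomain. Cbx7, the Cbx protein known to predominate in ESCs, had 267.4 and 262.9 CPM in WT and 265.9 and 327.0 in REST-/- ESCs. Only REST-/- replicate 2 stood above the other libraries. The log2 fold change was 0.16 (SE 0.15, 95% interval -0.24 to 0.56), and without that library it was -0.0004. Cbx2, known for binding and compacting nucleosomes, had 55.7 and 63.2 CPM in WT and 51.6 and 52.7 in REST-/- ESCs. Its REST-/- libraries were the lower ones, by a log2 fold change of -0.19 (SE 0.15, adjusted p = 1.0 in edgeR's quasi-likelihood test). Cbx6 had 99.33 and 99.01 CPM in WT and 87.6 and 95.7 in REST-/- ESCs. It too was lower in the REST-/- libraries, by a log2 fold change of -0.11 (SE 0.13, adjusted p = 1.0 in edgeR's quasi-likelihood test). Leaving out each library in turn gave -0.28 to -0.09 for Cbx2 and -0.18 to -0.05 for Cbx6.

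Cbx8, a Cbx protein better known from differentiated cells, was close to the limit of these libraries, counted 38 and 27 times in WT ESCs and 28 and 18 times in REST-/- ESCs. That corresponded to 1.23 and 1.01 CPM and to 1.08 and 0.813 CPM, and the genotypes overlapped. The log2 fold change was -0.23 (SE 0.40), and its interval of -1.29 to 0.82 was wider than those of the other Cbx genes. Without WT replicates 1 and 2 the value was -0.09 and -0.37, and without REST-/- replicates 1 and 2 it was -0.46 and -0.05. Cbx2 and Cbx8 lie beside each other on chromosome 11 of mm9, from 118884276 to 118902283, and Cbx6 and Cbx7 on chromosome 15, from 79654326 to 79801549. Cbx6 shares 1175 exonic bases with Npcd on the same strand, which was listed with 0 counts in every library. A stretch of 275 bases, 17.6% of the Cbx2 coding sequence, has a match on chr9:6222340-6222614 with 92% identity.

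As shares of the summed RPKM of these 4 Cbx genes, Cbx7 made up 70.7 and 69.2% in WT and 72.7 and 75.6% in REST-/- ESCs. Cbx6 made up 15.8 and 15.7% in WT and 14.4 and 13.3% in REST-/- ESCs, and Cbx2 made up 13.1 and 14.8% and then 12.6 and 10.8%. Cbx7 therefore took the larger share in both REST-/- libraries and Cbx2 and Cbx6 the smaller. Cbx8 stayed under 1%. The difference in the Cbx7 share was 4.2 percentage points, and in those of Cbx6 and Cbx2 -1.89 and -2.26. Without REST-/- replicate 2 the Cbx7 and Cbx2 differences shrank to 2.74 and -1.4, and without WT replicate 2 that of Cbx2 was -1.41. In an exact two-sided permutation test each of these gave p = 0.33, the smallest that 2 against 2 libraries can give (0.444 after adjustment over the 4 shares). The shares sum to a whole, so they are not independent of each other.

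Rnf2, also known as RING1B and the main H2A ubiquitin ligase of ESCs, had 137.8 and 82.0 CPM in WT and 141.3 and 89.3 in REST-/- ESCs. Within each genotype, replicate 1 was higher than replicate 2, by 1.68-fold in WT and 1.58-fold in REST-/- ESCs, while the genotypes differed by a log2 fold change of 0.07 (SE 0.35, 95% interval -0.86 to 1.00). The sign turned without WT replicate 2 (-0.26) and without REST-/- replicate 1 (-0.29). Ring1, its paralogue RING1A, had 5.36 and 5.67 CPM in WT and 5.03 and 6.91 in REST-/- ESCs, with both genotypes overlapping. Its log2 fold change was 0.11 (SE 0.30, 95% interval -0.67 to 0.90), or -0.14 without REST-/- replicate 2. Rnf2 exceeded Ring1 per length by 27.5- and 15.5-fold in the WT libraries and by 30.1- and 13.9-fold in the REST-/- libraries. The log2 ratio of Ring1 to Rnf2 was -4.37 ± 0.59 in WT and -4.35 ± 0.79 in REST-/- ESCs (SD, n = 2; exact permutation p = 1.0), so the spread within a genotype was much larger than the difference between genotypes.

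Phc1, which carries the SAM domain through which canonical complexes oligomerise, was counted 18326 and 19300 times in WT ESCs and 16717 and 16675 times in REST-/- ESCs. Scaled for depth these were 592.0 and 720.6 CPM and 647.0 and 752.8 CPM, so each genotype had a lower and a higher library and the ranges overlapped. The log2 fold change was 0.09 (SE 0.16, 95% interval -0.34 to 0.53), and it turned to -0.05 without WT replicate 1 and to -0.03 without REST-/- replicate 2. Phc1 made up 92.4 and 92.4% of the summed RPKM of the 3 Phc genes in WT and 92.1 and 91.8% in REST-/- ESCs. The dominance of Phc1 in its group was thus close to the same in all 4 libraries.

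Bmi1, or Pcgf4, the Pcgf subunit best known from adult stem cells and the repression of Cdkn2a, was the most variable of the 9. It was counted 413 and 127 times in WT ESCs and 184 and 72 times in REST-/- ESCs, which were 13.3 and 4.74 CPM and 7.12 and 3.25 CPM. The 2 WT libraries thus differed by 2.81-fold and the 2 REST-/- libraries by 2.19-fold, and the REST-/- library with more Bmi1 lay between the WT libraries. The log2 fold change of -0.80 was the largest in size among the 9, but its SE was 0.66 and its 95% interval ran from -2.55 to 0.95 (adjusted p = 1.0 in edgeR's quasi-likelihood test). Without WT replicate 1 it turned to 0.12, and without WT replicate 2, REST-/- replicate 1 and REST-/- replicate 2 it was -1.36, -1.47 and -0.35. The coding sequence of Bmi1 has 3 matches elsewhere in mm9 at 90% identity or more. The longest is a copy of the whole coding sequence on chrX:146656906-146657879 with 96.4% identity. This copy is an annotated pseudogene listed as EG546387 (Gm5946), counted 83 and 32 times in WT ESCs and 46 and 9 times in REST-/- ESCs. These followed the order of the Bmi1 counts over the libraries, and how reads were divided between the gene and its copy is not given in the sources used here, so the Bmi1 counts are uncertain.

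Pcgf2, or Mel18, the closest paralogue of Bmi1, had 117.0 and 96.5 CPM in WT and 117.3 and 97.8 in REST-/- ESCs, a log2 fold change of 0.01 (SE 0.18) that turned to -0.12 without WT replicate 2 or REST-/- replicate 1. Bmi1 made up 4.01 and 1.65% of the summed RPKM of the 6 Pcgf genes in WT and 2.44 and 1.19% in REST-/- ESCs, while Pcgf2 made up 40.6 and 38.7% and then 46.3 and 41.5%. Pcgf2 was thus the most abundant Pcgf gene in every library and Bmi1 the least. The log2 ratio of Bmi1 to Pcgf2 was -3.95 ± 0.86 in WT and -4.68 ± 0.61 in REST-/- ESCs (SD, n = 2; exact permutation p = 0.667, 1.0 after adjustment over 3 ratios). The difference of -0.74 was -0.13 without WT replicate 1, -1.34 without WT replicate 2, -1.17 without REST-/- replicate 1 and -0.30 without REST-/- replicate 2. The genes whose profile over the 4 libraries was nearest to that of Bmi1 were Dub2, 4632404H22Rik and Eda2r, at Euclidean distances of 0.0972, 0.134 and 0.143 between centred log2(CPM + 0.5) profiles. Of these, Eda2r had 173.4 and 73.1 CPM in WT and 107 and 48.2 in REST-/- ESCs. Profiles over 4 libraries are shared by many genes, and the likeness is a description of these libraries alone.

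Rybp, which replaces the Cbx protein in variant complexes and binds ubiquitinated H2A, had 93.4 and 74.3 CPM in WT and 91.3 and 76.8 in REST-/- ESCs. The REST-/- libraries lay between the WT libraries. Its log2 fold change was 0.0036 (SE 0.19, 95% interval -0.49 to 0.50), with -0.15 without WT replicate 2 and -0.12 without REST-/- replicate 1. Yaf2, its paralogue, was counted 224 and 324 times in WT ESCs and 269 and 216 times in REST-/- ESCs, with a log2 fold change of 0.06 (SE 0.33) that turned to -0.27 without WT replicate 1. Rybp exceeded Yaf2 per length by 5.42- and 2.58-fold in WT and by 3.69- and 3.31-fold in REST-/- ESCs, and the log2 ratio did not differ beyond its spread (1.90 ± 0.76 against 1.80 ± 0.11, SD, n = 2; exact permutation p = 1.0). The Rybp coding sequence also has a copy over its whole length, on chr13:66108671-66109357 of mm9 with 99.3% identity, so its counts too are uncertain.

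**Figure D2:**
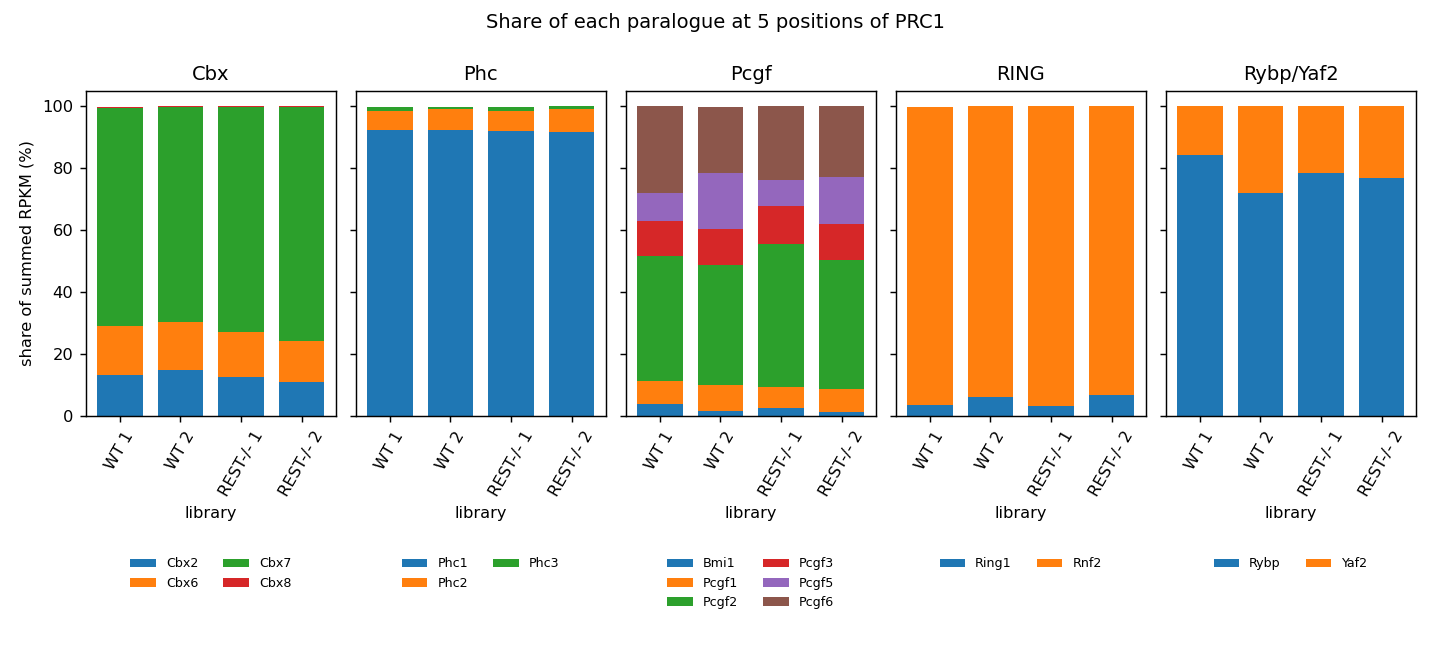
Share of each paralogue in the summed RPKM of its group, in percent, for the Cbx, Phc, Pcgf, RING and Rybp/Yaf2 genes, with 1 stacked bar per library. Cbx7, Phc1, Pcgf2, Rnf2 and Rybp take the largest share of their group in all 4 libraries.

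The spread between libraries of 1 genotype was set beside the difference between genotypes. The median size of the log2 ratio was 0.20 between the WT libraries and 0.27 between the REST-/- libraries, while the median size of the genotype difference was 0.11. Over all genes tested the same medians were 0.32, 0.28 and 0.18. In 4 of the 9 genes, Rnf2, Phc1, Bmi1 and Rybp, the fitted genotype difference was smaller than both library differences, as it was in 8066 of 15444 genes tested. The direction of the library difference also varied from gene to gene: replicate 1 was the higher library in both genotypes for Bmi1, Rnf2, Rybp and Cbx8, and the lower one in both for Phc1, Ring1 and Cbx2.

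**Figure D3:**
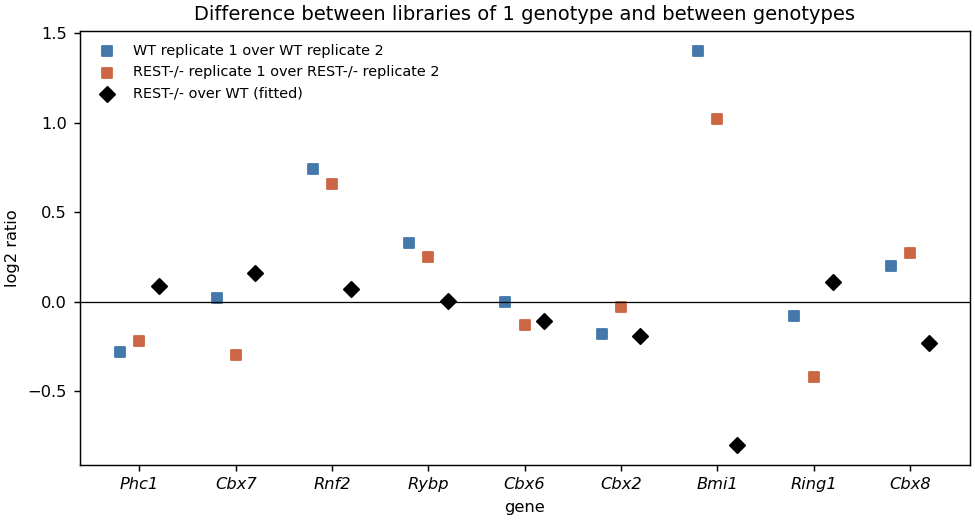
Log2 ratios for each of the 9 genes: replicate 1 over replicate 2 in WT (blue squares) and in REST-/- ESCs (orange squares), and the fitted log2 fold change of REST-/- over WT (black diamonds). For Rnf2 the squares lie at 0.74 and 0.66 and the diamond at 0.07, and for Bmi1 the squares lie at 1.4 and 1.02 and the diamond at -0.80.

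**Figure D4:**
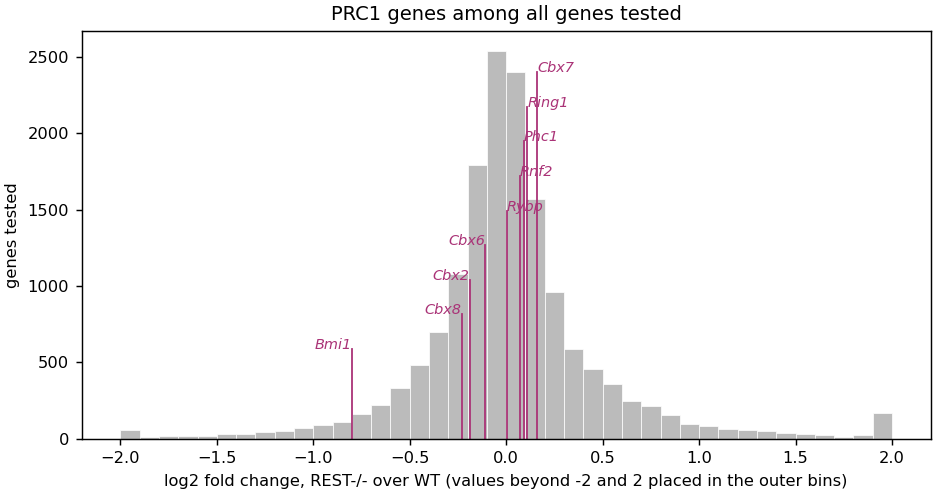
Histogram of the log2 fold changes of the 15444 genes tested, with a line at the value of each of the 9 PRC1 genes; the height of a line has no meaning. The lines of 8 genes fall within 0.25 of 0 and Bmi1 lies apart at -0.80.

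Beyond the 9 genes, a list of 29 other PRC1 genes was examined, 7 of canonical and 22 of variant complexes, and all 29 were tested. None was called by edgeR's quasi-likelihood test, by DESeq2 or by edgeR's exact tests. Of the 29, 2 had an unadjusted p under 0.05 in the quasi-likelihood test, as did 6.71% of all genes tested. Of the 29, 7 had a log2 fold change above 0 and 22 below, with a median of -0.14 against -0.0047 over all genes tested. The groups did not overlap in 1 gene that was higher and in 9 that were lower in REST-/- ESCs, against the 16.5% and 15.4% of tested genes given above. Without WT replicate 1 the median was -0.06, and without each of the other libraries it was -0.15 to -0.09.

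The most abundant of these genes per length in WT ESCs were all from the list of variant complexes. They were Skp1a, a subunit of SCF ubiquitin ligases (188.6 ± 32.2 RPKM, SD, n = 2), the WD40 protein Wdr5 (84.6 ± 2.04), the E2F partner Tfdp1 (77.5 ± 11.3), the deubiquitinase Usp7 (71.0 ± 2.04), the casein kinase subunit Csnk2b (62.0 ± 5.64) and L3mbtl2 (42.6 ± 0.794). Their log2 fold changes ran from -0.24 in Skp1a to -0.02 in Tfdp1, but Skp1a was at -0.06 and Tfdp1 at 0.13 without WT replicate 1, and at -0.09 and 0.05 without REST-/- replicate 2. Several of them also serve in other complexes, so their level is not that of PRC1.

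Kdm2b, the CpG-island binding protein of a variant complex (listed as Fbxl10), had 111.9 and 114.2 CPM in WT and 150.6 and 130.8 in REST-/- ESCs. It was higher in both REST-/- libraries, with the largest positive value of the list, a log2 fold change of 0.32 (SE 0.14, adjusted p = 0.850 in edgeR's quasi-likelihood test). Phc2 and Sfmbt2 followed with 0.21 (SE 0.23) and 0.17 (SE 0.17), and their genotypes overlapped. Without REST-/- replicate 2 these were 0.0038 and 0.03, and without WT replicate 1 they were 0.0092 and 0.04. Bcorl1, a corepressor of the same complex as Kdm2b, had 14.2 and 15.8 CPM in WT and 8.09 and 6.09 in REST-/- ESCs. This was the largest negative value, a log2 fold change of -1.08 (SE 0.26, adjusted p = 0.520 in edgeR's quasi-likelihood test). Bcorl1 is on the X chromosome, where the median log2 fold change of the 538 genes tested was -0.40 (-0.19 without WT replicate 1, -0.56 without WT replicate 2, -0.60 without REST-/- replicate 1 and -0.27 without REST-/- replicate 2), and its relation to that shift was not tested. The X-linked Bcor and Scml2 had -0.29 (SE 0.18) and -0.35 (SE 0.50), and without WT replicate 1 they were -0.17 and 0.28, and without REST-/- replicate 2 -0.16 and -0.07. Scmh1, a canonical subunit on chromosome 4, had 66.8 and 54.1 CPM in WT and 40.3 and 36.6 in REST-/- ESCs. Both REST-/- libraries were the lower ones, with a log2 fold change of -0.65 (SE 0.18, adjusted p = 0.601 in edgeR's quasi-likelihood test). Auts2, a subunit of a variant complex studied in the nervous system, followed with -0.43 (SE 0.33), and its genotypes overlapped. Its value was -0.12 without WT replicate 2 and -0.15 without REST-/- replicate 1.

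**Figure D5:**
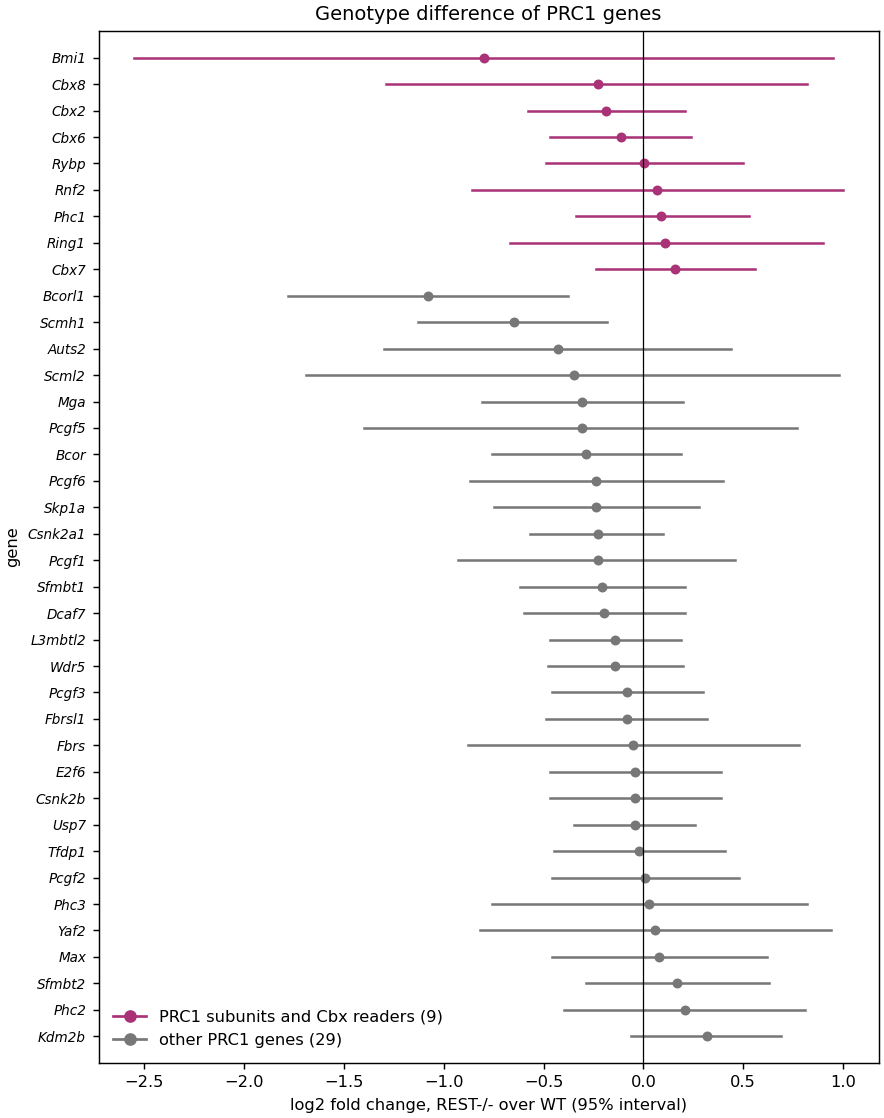
Log2 fold change of REST-/- over WT with its 95% interval for the 9 PRC1 genes (purple) and the 29 other PRC1 genes (grey), each sorted by value. All 9 purple intervals include 0, and in grey Bcorl1 and Scmh1 lie below it.

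None of the genes in 3 lists of factors that act next to PRC1 was called by edgeR's quasi-likelihood test, by DESeq2 or by edgeR's exact tests. None of the 3 HP1 genes, which encode the Cbx proteins that read H3K9 methylation instead, had an unadjusted p under 0.05, and their log2 fold changes ran from -0.08 in Cbx1 to 0.03 in Cbx5. Without WT replicate 1 and without REST-/- replicate 2, Cbx1 turned to 0.14 and 0.04, and without REST-/- replicate 1 Cbx5 was at -0.0004. The 6 genes of H2A deubiquitination ran from -0.17 in Mysm1 to 0.15 in Asxl3, also with none at an unadjusted p under 0.05. Mysm1 turned to 0.61 without WT replicate 1 and to 0.28 without REST-/- replicate 2, and Asxl3 to -0.18 without WT replicate 1. Of 11 PRC2 genes, 1 had an unadjusted p under 0.05 in the quasi-likelihood test, against 6.71% of all genes tested. The median log2 fold change of the 11 was -0.10. That gene was Phf19, an accessory subunit, which had 41.7 and 53.2 CPM in WT and 28.3 and 30.9 in REST-/- ESCs, a log2 fold change of -0.68 (SE 0.19, adjusted p = 0.619 in edgeR's quasi-likelihood test). The largest positive value of the PRC2 list was that of Rbbp4, a histone chaperone also found in other complexes, with 0.11 (SE 0.11).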

How the data were processed

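Total RNA of 2 WT and 2 REST-/- ESC libraries (Illumina TruSeq) was mapped by the authors with Subread and assigned to genes with featureCounts, per the labels and the submitters' processing notes, which name mm9. The deposited values are raw counts per Entrez gene identifier, without normalization. Strand use, the annotation and the treatment of reads with several matches are not given in the sources used here, so overlapping genes and copies could not be separated. The 368 rows without an identifier, which hold no counts, were left out. Symbols came from the table and from RefSeq (GRCm38.p6, names and promoters; 24191 identifiers matched). Positions and exon lengths came from GENCODE M1 on NCBIM37 (21860 identifiers with 1 gene).

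Counts were fitted in R 4.3.3 with edgeR 4.0.16 (TMM, filterByExpr, glmQLFit and glmQLFTest without covariates, prior count 0.125), with Benjamini-Hochberg adjustment over the 15444 genes tested and a threshold of 0.05. RPKM was CPM over the union exon length. Shares and ratios were compared with exact two-sided permutation tests. Copies of coding sequences were searched with BLAST+ 2.17.0 at 90% identity or more. The fits were run on simulated counts with large changes, the same dispersion in every gene and no difference shared by replicates. Such counts are unlike these libraries and do not show what the fits miss here. Depth was 22293966 to 30953863 counts per library, and 3 counts served as the detection floor, for counting error alone.

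The 9 genes and all gene lists were chosen with earlier results of these data known. Named genes were the 9, Rest, Pcgf2 and Yaf2, the 6 most abundant other PRC1 genes, the 3 largest changes of that list in each direction, the largest change in each direction of the other gene lists (markers of cell types were given as sums), any called gene, and the 3 genes nearest in profile to the member with the largest change. Bcor, Scml2, Npcd, EG546387, Lum, Zfp42, Klf2, Nanog, Klf4, Dppa3, Tfcp2l1, Pou5f1 and Tdgf1 fall outside this rule and were named after their values were seen. A gene of the list of other PRC1 genes is not reported here and was left out of its counts. Alternatives were scaling by RLE, by upper quartile or by library size, no count filter or a stricter one, edgeR's exact test, DESeq2 1.42.0, a prior count of 2, a block for the replicate number, other length scalings, and each library left out. Other data types of the study were not analysed here.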

Additional observations from a re-analysis of the deposited data

How the results depend on the processing

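Of 126 alternative values of the 9 log2 fold changes, 113 kept their sign and their side of the threshold, 12 turned sign and 1 passed the threshold. Rybp turned to -0.0043 under RLE scaling and DESeq2 and to -0.0064 without a filter beyond 1 count. With each library left out, the values ran from -1.47 to 0.12 in Bmi1, -0.29 to 0.48 in Rnf2, -0.15 to 0.17 in Rybp, -0.05 to 0.24 in Phc1, -0.14 to 0.33 in Ring1 and -0.0004 to 0.31 in Cbx7; the remaining library of that genotype is then assumed to vary like the others. The number of genes called over the whole table moved from 9 to 53 without the filter, 3 with at least 10 counts in every library, 277 and 344 with edgeR's exact test (tag-wise and common dispersion), 238 with DESeq2, and 60 to 113 with a library left out. The cause was not tested.

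No source links libraries of the same replicate number. Their differences within a genotype had a correlation of 0.807 over 15444 genes, a hint from 2 pairs only. With the replicate number as a block, 2621 genes were called (1308 higher, 1313 lower), among them 1 of the 9, Bmi1 (log2 fold change -0.75, adjusted p = 0.0316 in edgeR's quasi-likelihood test), 9 of the 29 other PRC1 genes, 4 of 11 PRC2 genes and 8 of 17 developmental regulators. The adjusted p of Bmi1 was 0.402 to 1.0 under all other alternatives. Without length scaling, the WT share of Cbx7 was 62.4% in place of 70.0% and the log2 ratio of Rybp to Yaf2 was 3.15 in place of 1.90. With 2 libraries a genotype, the permutation tests cannot go below 0.33, and the wide intervals of Bmi1, Cbx8, Rnf2 and Ring1 leave changes of those sizes undetected.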

Other observations

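Developmental regulators known as Polycomb targets in ESCs, outside the PRC1 genes themselves, were measured as a list of 21 genes, of which 17 were tested. None was called by edgeR's quasi-likelihood test, while DESeq2 called 3, and the exact test of edgeR called 4 (tag-wise dispersion) or 5 (common dispersion). Over all 15444 genes tested, these tools called 238, 277 and 344. The quasi-likelihood test itself called 1 of the list, Olig2, without a filter beyond 1 count (adjusted p = 0.0281), and 3 without WT replicate 1, 2 without WT replicate 2, 1 without REST-/- replicate 1 and 2 without REST-/- replicate 2, with Olig2 among them each time. Of the 17, 6 had an unadjusted p under 0.05, as did 1036 of all genes tested, and 10 had a log2 fold change above 0 and 7 below, with a median of 0.09. T, the mesoderm factor Brachyury, was counted 35 and 12 times in WT ESCs and 386 and 118 times in REST-/- ESCs, a log2 fold change of 3.66 (SE 0.76, adjusted p = 0.405 in edgeR's quasi-likelihood test), the largest positive value of the list. Olig2, a factor of oligodendrocyte and motor neuron precursors, was counted 158 and 172 times in WT ESCs and 1 and 0 times in REST-/- ESCs. Against a floor of 3 counts per library it was at least 45.8-fold lower in REST-/- ESCs (adjusted p = 0.106 in edgeR's quasi-likelihood test). Cdkn2a, the locus known as a target of Bmi1 and Cbx7, was counted 597 and 708 times in WT ESCs and 450 and 536 times in REST-/- ESCs, a log2 fold change of -0.14 (SE 0.28), and was chosen for mention after its value was seen. It turned to 0.11 without WT replicate 2 and to 0.09 without REST-/- replicate 1.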
